A study of Mus musculus with 20 samples.

Results

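Adrenergic receptors are the cell surface receptors for adrenaline and noradrenaline. Here, 8 genes of this family were described in the mouse uterus: Adra1a, Adra1b, Adra1d, Adra2a, Adra2b, Adra2c, Adrb1 and Adrb3. They were selected by gene symbol, with no threshold on their values, and all 8 were found among the 45777 genes of the deposited table. Other receptors for these hormones were not analysed here.

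The 20 libraries came from the uteri of 20 wild-type B6D2F1 female mice that had been mated at 8 to 12 weeks of age, with 5 mice per group and 1 library per mouse. All uteri were collected at 18:00 on day 3.5, before implantation, where day 0.5 was the morning of the vaginal plug. The paper calls the mice pregnant, but whether each sequenced mouse carried embryos is not stated. Control mice received no treatment. The IF (implantation failure) group received RU486, a blocker of the progesterone and glucocorticoid receptors, at 3 mg/kg under the skin at 9:00 on day 3.5. The PBMC and PBMC-hCG groups received the same RU486 and, on day 1.5, 50000 peripheral blood mononuclear cells per uterine horn, after culture of the cells for 24 h. For the PBMC-hCG group this culture contained 5 IU/mL human chorionic gonadotropin (hCG). The cells came from mice that were not pregnant. No group that received culture medium without cells was analysed here, so the cells and the intrauterine injection cannot be told apart.

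The α1 receptors (Adra1a, Adra1b, Adra1d) couple to Gq and raise intracellular calcium through phospholipase C, which contracts smooth muscle. The α2 receptors (Adra2a, Adra2b, Adra2c) couple to Gi and lower cyclic AMP, and on sympathetic nerve endings they restrain noradrenaline release. The β receptors (Adrb1, Adrb3) couple to Gs and raise cyclic AMP, which relaxes the myometrium and, through Adrb3, drives the breakdown of fat in adipocytes. The uterus receives sympathetic nerves, and the response of its muscle to these hormones is known to change with the ovarian steroids.

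Values are in TPM, the transcript abundance relative to the library total, a unit corrected for transcript length, so that levels may be compared between genes. Each library summed to between 999989 and 999999 TPM, which leaves the read depth unknown, and between 22702 and 24097 genes were above 0. Where differences are given they are log2 fold changes of TPM + 0.1 with their standard error (SE), from limma with all 4 groups in 1 fit. Adding 0.1 shrinks the fold changes of low genes. This fit held the 18706 genes with values above 0 in every one of the 20 libraries, and adjusted p is the Benjamini-Hochberg value over all of them. Of the receptors, 5 entered this fit. The other 3 were at 0 TPM in 1 library each and were tested in a second fit without this filter, over 30695 genes. Because whole uterine tissue was sequenced, fewer cells of a type and less RNA per cell cannot be told apart.

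Of the 20 libraries, control replicate 2 stood apart in its cell type markers. Its 8 adipocyte markers summed to 701.5 TPM, against 2.8 to 151.6 TPM in the other libraries, and its epithelial markers to 5545 TPM, against 641.3 to 1504 TPM. Of the epithelial list, Prap1 varied most between mice, with an SE of 1.55 for IF against control, where the other markers had 0.0859 to 0.251. The epithelial sum therefore does not show that epithelial markers in general were higher in this library. Its stromal markers had the lowest sum, at 5179 TPM, against 8873 to 11300 TPM. Without it, the same receptors were called against control as with it, and where its removal changed the sign or the call of a difference named here, both values are given.

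The receptor genes differ in their structure. On GRCm38 (mm10), GENCODE annotates the coding transcripts of Adra2b, Adra2c and Adrb1 with a single exon, and those of Adra2a with 1 or 2 exons. RefSeq places Adra2a on chromosome 19 from 54045259 to 54048982, on the plus strand. The α1 genes are spread over longer regions, of which Adra1a spans 135990 bases of chromosome 14 and Adra1b 126646 bases of chromosome 11. The antisense gene Gm14285 overlaps an exon of Adra1d and Gm45470 an exon of Adrb3. The library kit keeps strand, but the strand setting of the quantification is not given in the sources used here, so reads of these 2 receptors and of their antisense partners may not have been separated.

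RefSeq windows from 250 bases before to 50 bases after a transcription start were at hand for 5 receptors, with 2 starts for Adra1b and 1 for each of Adra2a, Adra2b, Adra2c and Adrb1. The last 30 bases before each start are shown because only those of Adra2a held the letters of a TATA box. A link between these letters and differences between groups was not tested, and no window was at hand for Adra1a. Sequences are RefSeq GRCm38.p6, 5′ to 3′ on the strand of the gene, and capitals mark the TATA box letters TATAAA.
Adra2a (chr19:54045229-54045258, plus strand): cTATAAAaccagtccagcgtagagcggcgg
Adra2b (chr2:127363149-127363178, plus strand): aatctcctccctcctcccgcggtgctggct
Adra2c (chr5:35278536-35278565, plus strand): aaagcgcaggtctggagcgtcccctccagc
Adra1b, upstream start (chr11:43901238-43901267, minus strand): gtttctgcaacctaacagcaaagttcactt
Adra1b, downstream start (chr11:43836490-43836519, minus strand): accgccgtgcagtcagcccagaggcggctc
Adrb1 (chr19:56722087-56722116, plus strand): gggtgttggagccgccggccccgcgcgctc
In the window of Adra2a, TATAAA lay at bases -29 to -24 relative to the start, and no other window of the receptors held it. At any position and on either strand, 13.6% of the 32851 windows of all genes held these letters. GENCODE also annotates a longer Adra2a transcript that begins at base 54044151, so the bases shown lie inside an exon of that transcript, as they do for Adra2c. The GC box letters CCGCCC, present in 35.7% of all windows, were found for Adra2a, Adra2b, Adrb1 and the downstream start of Adra1b. None of the 6 windows held the cyclic AMP response element TGACGTCA (1.79% of all windows), the full estrogen response element (0.07%) or the hormone receptor half-site TGTTCT (19.0%), each searched on both strands.

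Adra2a was the most abundant of the 8 transcripts in every library. Its mean over the 20 mice was 12.3 ± 3.89 TPM (SD, n = 20), which was 5.42 times that of Adra1d, the next in order, and the ranges of the 2 genes did not touch. In the control group, Adra2a made up between 49.7% and 63.2% of the summed TPM of the 8 receptors, and in the PBMC-hCG group between 70.4% and 75.1%. Adra1d (2.28 ± 0.723 TPM) and Adra1a (1.98 ± 0.556 TPM) could not be ordered, as Adra1d was the higher of the pair in 9 of 20 libraries. Adra1a was higher than Adrb1 (1.01 ± 0.290 TPM) in 20 of 20 libraries, although the ranges of the 2 genes over all mice overlapped.

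The remaining 4 receptors had means below 0.5 TPM. Adrb1 was higher than Adrb3 (0.337 ± 0.771 TPM) in 19 of 20 libraries, the exception being control replicate 2. Adrb3, Adra1b (0.263 ± 0.149 TPM) and Adra2b (0.215 ± 0.108 TPM) could not be ordered, with Adrb3 above Adra1b in 7 of 20 libraries and Adra1b above Adra2b in 11 of 20. Adra2c was the least abundant at 0.0747 ± 0.0521 TPM and lay below Adra2b in 19 of 20 libraries. Thus, 1 receptor coupled to Gi stood well above the α1 and β receptors, whereas its closest relatives Adra2b and Adra2c were near the lower limit of the data.

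**Figure D1:**
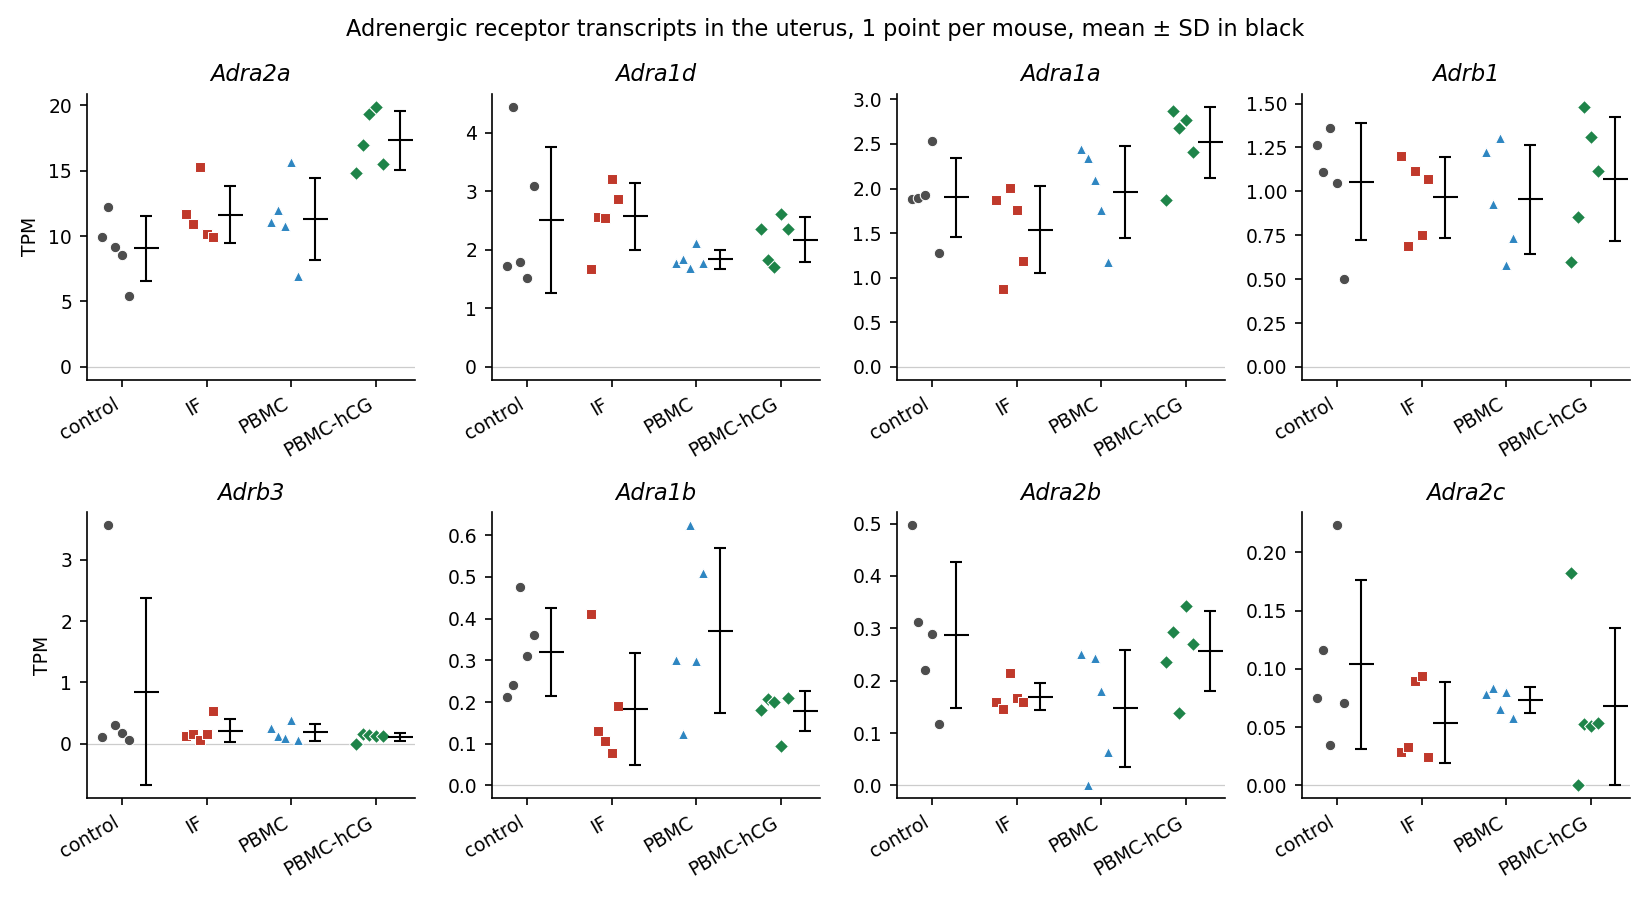
TPM of the 8 receptors (vertical axes, each with its own scale) by group (horizontal axis). Each point is 1 mouse and the black bars are the group mean and SD (n = 5). The 5 PBMC-hCG values of Adra2a, 14.8 to 19.9 TPM, lie above all 5 control values, and Adrb3 has a single high value of 3.57 TPM, in control replicate 2.

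Adra2a, the α2A receptor, was higher in PBMC-hCG mice than in control mice. In replicates 1 to 5, it was measured at 9.93, 12.2, 9.17, 8.57 and 5.41 TPM in the control group. In the IF group, in the same order, it was measured at 11.6, 10.96, 15.3, 10.2 and 9.95 TPM. It was measured at 11.1, 12.0, 10.8, 15.7 and 6.98 TPM in the PBMC group and at 14.8, 17.0, 19.3, 19.9 and 15.5 TPM in the PBMC-hCG group. All PBMC-hCG mice were above all control mice, whereas 1 IF mouse and 1 PBMC mouse reached into the PBMC-hCG range.

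The difference of Adra2a between PBMC-hCG and control was 0.96 (SE 0.20), a 1.95-fold rise in PBMC-hCG mice (limma, adjusted p = 0.00154). By a two-sided exact permutation test of 5 against 5 mice, p was 0.00794, the smallest value that this design allows. The groups did not overlap in 18.3% of all tested genes in this comparison. With 1 mouse at a time left out, the difference lay between 0.79 and 1.08 and the adjusted p stayed below 0.05 in all 10 fits, the one without control replicate 2 (1.08) included.

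Against the IF group, the more direct reference for the treatment with cells, Adra2a differed by 0.58 (SE 0.20) in PBMC-hCG mice, with a 95% confidence interval of 0.158 to 1.004. The unadjusted p was 0.00971 and the adjusted p 0.0584, so that this difference did not pass the test (limma). With 1 mouse at a time left out, the adjusted p was below 0.05 in 2 of 10 fits and reached 0.159 (limma). The 2 were those without IF replicate 3, the highest of the IF mice (0.0248), and without PBMC-hCG replicate 1 (0.0448). The difference also passed when only these 2 groups were fitted, at 0.0390, and with the replicate number as a block, at 0.0295. It did not pass with quantile normalization (0.0631), with median-ratio scaling (0.0644) or without the filter on low values (0.0934). Between PBMC-hCG and PBMC mice, the difference was 0.65 (SE 0.20, adjusted p = 0.268), and between PBMC and IF mice it was -0.07 (SE 0.20). IF mice differed from control mice by 0.38 (SE 0.20, adjusted p = 0.193), and PBMC mice by 0.32 (SE 0.20, adjusted p = 0.3004). Without control replicate 2, these differences were 0.50 (adjusted p = 0.074) and 0.44 (adjusted p = 0.124). These comparisons share groups of mice and are not independent of each other.

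Marker genes of several cell types moved in the same direction as Adra2a or opposite to it. In PBMC-hCG against control, 20.2% of all tested genes were called higher and 11.6% lower. All 8 endothelial markers were higher in PBMC-hCG than in control mice (adjusted p under 0.05 for each), and their sum was 397.7 to 542.1 TPM in the control group, 605.3 to 655.8 TPM in the IF group, 602.5 to 697.6 TPM in the PBMC group and 674.5 to 757.3 TPM in the PBMC-hCG group. Of 7 lymphocyte markers tested, 3 were higher in PBMC-hCG than in control mice, and the sum of the list lay between 62.7 and 67.2 TPM in control mice and between 77.2 and 104.4 TPM in PBMC-hCG mice. Of 10 smooth muscle markers, 5 were lower in PBMC-hCG than in control mice, with sums of 6356 to 11690 TPM in control and 5196 to 6544 TPM in PBMC-hCG mice. Of 8 mural cell markers, 5 were higher and 0 lower, of 8 epithelial markers 4 were higher and 1 lower, and of 5 skeletal muscle markers tested 0 were higher and 3 lower. The other lists had at most 2 calls in either direction. Without control replicate 2, the endothelial, lymphocyte and smooth muscle counts were the same, mural cells had 4 higher and 1 lower, epithelial cells 6 and 1, skeletal muscle 0 and 4, and stromal cells 2 higher and 5 lower in place of 2 and 2. The part of these cell types in the difference of Adra2a was not tested.

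Adra1a, an α1 receptor of smooth muscle, was higher in PBMC-hCG than in IF mice. It was measured at 1.88, 1.90, 1.93, 2.53 and 1.28 TPM in the control group, at 1.87, 0.876, 2.01, 1.76 and 1.19 TPM in the IF group, and at 2.44, 2.34, 2.10, 1.76 and 1.17 TPM in the PBMC group. In the PBMC-hCG group, it was measured at 1.88, 2.87, 2.68, 2.76 and 2.41 TPM. Of the PBMC-hCG mice, 4 were above all IF mice, and replicate 1 lay within the IF range.

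The difference of Adra1a between PBMC-hCG and IF was 0.72 (SE 0.23), a 1.65-fold rise, with an adjusted p of 0.0469 (limma) and an exact two-sided permutation p of 0.0159. This call was close to the threshold. The adjusted p rose to between 0.0723 and 0.140 when IF replicate 2, 4 or 5 or PBMC-hCG replicate 2, 3, 4 or 5 was left out, to 0.0792 without the filter on low values, and to 0.0556 when only the 2 groups were fitted. IF mice lay below control mice by a difference of -0.32 (SE 0.23, adjusted p = 0.363), and PBMC-hCG mice differed from control mice by 0.40 (SE 0.23, adjusted p = 0.195). Between PBMC-hCG and IF mice, 0 of 10 smooth muscle markers were called (limma), where 13.6% of all genes were, and 3 had an unadjusted p under 0.05, where 35% of all genes did. The sums of the list were 5196 to 6544 TPM and 6435 to 7891 TPM. Of 5 red cell markers tested, 2 were called lower, and the list had a median difference of -1.04 and sums of 341.7 to 878.4 TPM in PBMC-hCG and 640.0 to 1802 TPM in IF mice. Of 8 stromal markers 2 were called higher, as was 1 each of the endothelial, epithelial and ovary and oviduct lists. The part of these cell types in the difference of Adra1a was not tested.

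Adra1d, an α1 receptor at a level close to that of Adra1a, did not pass the test in any of the 6 comparisons. In the control group it was measured at 1.73, 4.45, 1.80, 1.51 and 3.09 TPM, and in the IF group at 1.68, 2.55, 2.54, 3.21 and 2.87 TPM. In the PBMC group it was measured at 1.78, 1.84, 1.70, 2.11 and 1.78 TPM, and in the PBMC-hCG group at 2.35, 1.83, 1.70, 2.61 and 2.35 TPM. The highest of the 20 values was that of control replicate 2. IF mice differed from control mice by 0.12 (SE 0.24), and the estimate was 0.35 without control replicate 2. PBMC-hCG mice differed from control mice by -0.10 with this library and by 0.13 without it, neither of which was called. PBMC mice lay below IF mice by a difference of -0.43 (SE 0.24, adjusted p = 0.755), with an exact two-sided permutation p of 0.0476 before adjustment for the number of genes.

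Adra1b, the least abundant α1 receptor, was low in all groups. It was measured at 0.212, 0.241, 0.476, 0.311 and 0.362 TPM in control mice and at 0.180, 0.207, 0.201, 0.0944 and 0.210 TPM in PBMC-hCG mice. In IF mice it was measured at 0.412, 0.130, 0.105, 0.0784 and 0.190 TPM, and in PBMC mice at 0.300, 0.122, 0.625, 0.298 and 0.510 TPM. All 5 PBMC-hCG values lay below all 5 control values, by a narrow margin between 0.210 and 0.212 TPM. These 2 groups did not overlap in 18.3% of all tested genes. The difference of Adra1b was -0.58 (SE 0.30, adjusted p = 0.151), which did not pass limma's test. The exact two-sided permutation p was 0.00794, the value that any 2 groups of 5 mice without overlap give.

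For IF against control, the difference of Adra1b was -0.64 (SE 0.30, unadjusted p = 0.0460, adjusted p = 0.139). In the IF group, 4 mice lay below all control mice and replicate 1 lay within the control range. Without IF replicate 1, the adjusted p was 0.0325, and without control replicate 2 it was 0.116. The values of PBMC mice spanned 0.122 to 0.625 TPM, and their difference from IF mice was 0.73 (SE 0.30, unadjusted p = 0.0259, adjusted p = 0.701).

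Adrb1, the β1 receptor, showed no difference that passed the test, and its differences lay between -0.12 and 0.14 over the 6 comparisons. It was measured at 1.26, 1.11, 1.36, 1.05 and 0.498 TPM in the control group and at 1.20, 0.691, 1.11, 0.753 and 1.07 TPM in the IF group. In the PBMC group it was measured at 1.22, 0.927, 1.31, 0.580 and 0.736 TPM, and in the PBMC-hCG group at 0.595, 0.854, 1.48, 1.31 and 1.11 TPM. The 4 groups overlapped throughout. The difference between IF and control was -0.08, with a 95% confidence interval of -0.65 to 0.49, and that between PBMC-hCG and IF was 0.11, with an interval of -0.46 to 0.67.

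Adrb3, the β3 receptor of adipocytes, had 1 high library. It was measured at 0.116, 3.57, 0.311, 0.170 and 0.0553 TPM in control mice and at 0.124, 0.163, 0.0651, 0.162 and 0.534 TPM in IF mice. It was measured at 0.253, 0.127, 0.0912, 0.392 and 0.0643 TPM in PBMC mice, and in PBMC-hCG mice it was listed at 0 in replicate 1 and measured at 0.157, 0.140, 0.117 and 0.120 TPM in the others. The 4 libraries with the highest Adrb3 were those with the highest sum of adipocyte markers, in the same order: control replicate 2 (701.5 TPM), IF replicate 5 (151.6 TPM), PBMC replicate 4 (53.83 TPM) and control replicate 3 (35.7 TPM). The next in adipocyte markers, PBMC-hCG replicate 1 at 17.35 TPM, was the library that listed Adrb3 at 0.

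The adipocyte genes themselves set control replicate 2 apart. Adipoq, the adipocyte hormone adiponectin, was at 42.1 TPM there, at 4.45 TPM in IF replicate 5, the second highest, and its median in the 19 libraries other than control replicate 2 was 0. Plin1, which coats fat droplets, was at 13.8 TPM and 1.74 TPM in the same 2 libraries. Of the 8 markers, 7 were highest in control replicate 2, and Ucp1, the marker of brown fat, was listed at 0 there. The difference of Adrb3 between PBMC-hCG and control mice was -1.11 (SE 0.64, adjusted p = 0.279 in the fit without the filter), and -0.33 without control replicate 2. The difference between IF and control mice was -0.62 with this library and 0.16 without it, and that between PBMC and control mice -0.69 and 0.0875, none of which was called.

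**Figure D2:**
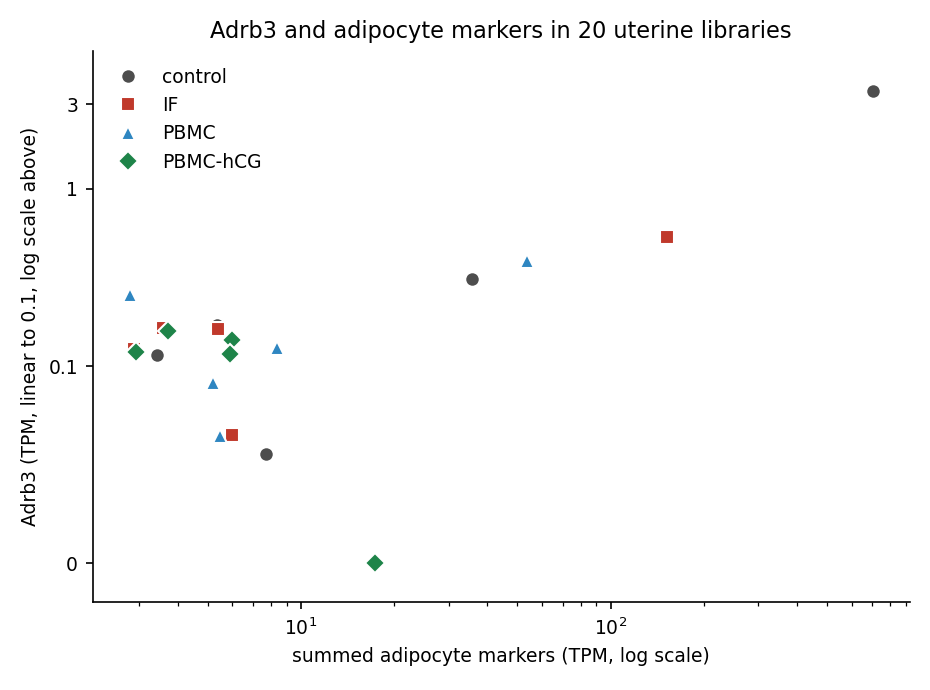
Adrb3 in TPM (vertical axis, linear up to 0.1 TPM and logarithmic above) against the summed TPM of 8 adipocyte markers (horizontal axis, logarithmic) in 20 uterine libraries, 1 point per mouse with symbols by group. The 4 libraries with more than 35 TPM of adipocyte markers rise together with Adrb3, up to 3.57 TPM in control replicate 2, and the libraries below show no such order.

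Adra2b and Adra2c, the remaining α2 receptors, were near the lower limit of the data. Adra2b ranged from 0.116 to 0.497 TPM in control mice, from 0.146 to 0.214 TPM in IF mice and from 0.138 to 0.342 TPM in PBMC-hCG mice. In PBMC mice, it was listed at 0 in replicate 2 and reached 0.251 TPM. PBMC mice lay below control mice by a difference of -0.72 (SE 0.32, unadjusted p = 0.0372, adjusted p = 0.184), with overlapping values, and without control replicate 2 the unadjusted p was 0.0674. Adra2c was at most 0.224 TPM in any library and was listed at 0 in PBMC-hCG replicate 2, and its differences lay between -0.37 and 0.20 over the 6 comparisons. In the fit without the filter, none of these 2 receptors or Adrb3 passed the adjusted test in any comparison, and 1 of them, Adra2b for PBMC against control, had an unadjusted p under 0.05. In this fit 12.5% of all genes were called for IF against control, 0.00326% for PBMC against IF, 2.65% for PBMC-hCG against IF, 0.00977% for PBMC-hCG against PBMC, 11% for PBMC against control and 18.1% for PBMC-hCG against control.

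Counted over the family, few receptors were called. For IF against control, 0 of the 5 receptors tested passed limma's adjusted test, where 21.9% of all genes did, and 1 had an unadjusted p under 0.05, where 33.9% of all genes did. The median difference of the 5 was -0.08, against 0.02 for all tested genes. For PBMC against IF, 0 of 5 passed, where 0% of all genes did, and 1 had an unadjusted p under 0.05 (6.79% of all genes). For PBMC-hCG against IF, 1 of 5 passed (Adra1a), where 13.6% of all genes did. The median difference was 0.11, against 0.05 for all tested genes.

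In the comparison of PBMC-hCG with PBMC, 0 of 5 passed, where 0.0107% of all genes did, and 2 had an unadjusted p under 0.05 (16.2% of all genes). For PBMC against control, 0 of 5 passed (19.5% of all genes), and 0 had an unadjusted p under 0.05 (31.6% of all genes). For PBMC-hCG against control, 1 of 5 passed (Adra2a), where 31.8% of all genes did. The counts of receptors were not tested against those of all genes. For IF against control, the 95% confidence intervals of Adra2a (-0.04 to 0.81), Adra1d (-0.38 to 0.62), Adra1a (-0.80 to 0.17) and Adrb1 (-0.65 to 0.49) lay within a log2 change of 1 in either direction, and the interval of Adra1b (-1.27 to -0.01) did not.

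**Figure D3:**
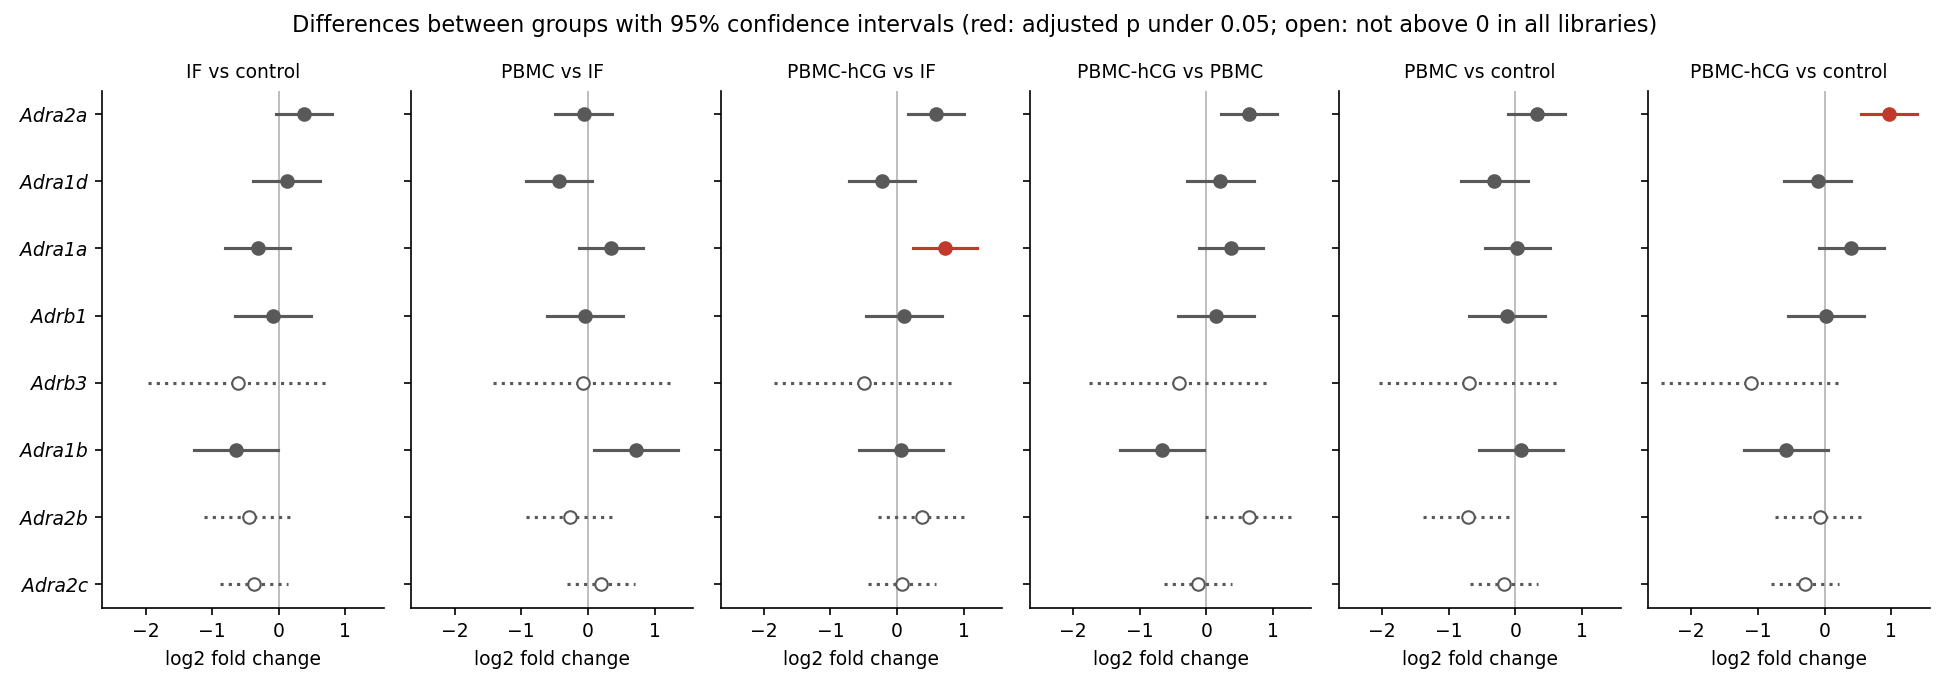
Log2 fold change of each receptor (horizontal axes) in the 6 comparisons (panels), as points with 95% confidence intervals. Filled points were above 0 TPM in all libraries, open points with dotted intervals come from the fit without this filter, and red marks an adjusted p under 0.05. Only Adra2a for PBMC-hCG against control (0.96) and Adra1a for PBMC-hCG against IF (0.72) are red.

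To place the receptors by their course over the 20 libraries, the genes most like each of the 4 more abundant receptors were listed, from 15767 candidates with a mean of at least 1 TPM, by Pearson correlation on the log2 scale (n = 20). The libraries share their normalisation and their mixture of cells, so these correlations are descriptions. Adra2a was most like Nr3c2, the mineralocorticoid receptor (r = 0.948), Irf9, a transcription factor of the interferon response (0.945), and Mknk2, a kinase that phosphorylates a translation initiation factor (0.944). After the group means were removed, these values were 0.901, 0.917 and 0.898. Nr3c2 was measured at 1.28 ± 0.460 TPM in control, 1.72 ± 0.633 TPM in IF, 1.83 ± 0.621 TPM in PBMC and 2.77 ± 0.345 TPM in PBMC-hCG mice (SD, n = 5). Control was lowest and PBMC-hCG highest for Adra2a too, but its IF mean (11.61 TPM) was above its PBMC mean (11.31 TPM). Nr3c2 was chosen by its correlation in these same libraries, so a shared order of groups follows largely from that choice. With Adra2a, 879 candidates had a correlation of at least 0.8.

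Adra1a was most like Has3, a hyaluronan synthase (r = 0.937), which was at 1.64 ± 0.647 TPM in IF and 2.997 ± 0.765 TPM in PBMC-hCG mice. Zfp994 (0.878) and E530011L22Rik (0.872) followed. Adra1d was most like Scgb3a1, a secretoglobin (0.910), Atp6v0d2, a subunit of the vacuolar proton pump (0.825), and Nmb, neuromedin B (0.823). In the control group, these 3 genes had SDs of 42.6, 33.4 and 45.1 TPM around means of 28.1, 31.2 and 39.3 TPM. Without control replicate 2, the correlations were 0.857, 0.774 and 0.739 (n = 19), whereas for the genes named with Adra2a and Adra1a they stayed at 0.873 or above. Adrb1 had no close counterpart, as the highest correlation was 0.702 (LOC115489542) and 1 candidate reached 0.7.

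Of the 4 enzymes that form the hormones, Th, Ddc, Dbh and Pnmt, none had a group mean above 0.5 TPM. These are transcripts of uterine tissue, and the supply of the hormones to it was not measured. Th, the rate-limiting enzyme of catecholamine synthesis, was listed at 0 in all IF, PBMC and PBMC-hCG mice and reached at most 0.0536 TPM in the control group. Pnmt, which makes adrenaline from noradrenaline, was at most 0.218 TPM in any library. Dbh, which makes noradrenaline from dopamine, had group means of 0.241 to 0.423 TPM. By contrast Slc6a2, the noradrenaline transporter that clears the hormone, had group means of 42.0 ± 13.8 TPM in control, 48.8 ± 14.1 TPM in IF, 40.4 ± 8.70 TPM in PBMC and 30.5 ± 5.55 TPM in PBMC-hCG mice (SD, n = 5). Slc6a2 did not pass the test between PBMC-hCG and IF (-0.64, SE 0.23, adjusted p = 0.0677). Against control, Slc6a2 in PBMC-hCG mice differed by -0.41 (adjusted p = 0.196), and by -0.62 without control replicate 2, which passed (adjusted p = 0.0235).

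Several other genes around the receptors differed between IF and control mice. In this comparison 13.4% of all tested genes were called higher and 8.53% lower. Of 7 transport and storage genes, 3 were higher and 0 lower. Slc22a3, a low-affinity carrier that takes up catecholamines outside neurons, rose by 1.50 on the log2 scale (SE 0.18, adjusted p = 1.3e-05), from 3.49 ± 0.974 to 9.85 ± 1.51 TPM. Of 8 breakdown genes, 0 were higher and 5 lower. Among them Sult1a1, a sulfotransferase, changed by -1.72 (SE 0.19, adjusted p = 4.49e-06), and Maob, a monoamine oxidase, by -1.12 (SE 0.29, adjusted p = 0.00998). Maoa, another monoamine oxidase, was not called (-0.0878, adjusted p = 0.711), but was called lower without control replicate 2 (-0.26, adjusted p = 0.0375). Of 4 synthesis genes tested, 2 were lower, Spr and Qdpr, which make and recycle the cofactor of Th.

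Of 11 G protein alpha subunits, 1 was higher and 2 were lower in IF mice. Gnai1, an inhibitory subunit of the kind that the α2 receptors use, changed by -0.83 (SE 0.10, adjusted p = 1.31e-05). Of 8 adenylyl cyclases, which make cyclic AMP, 1 was higher (Adcy4) and 1 lower (Adcy3). Of 15 phosphodiesterases, which degrade cyclic AMP or cyclic GMP, 8 were higher and 2 lower. Their median difference was 0.44, and Pde8b (1.53, SE 0.24, adjusted p = 0.000182), Pde7b (1.23, SE 0.12, adjusted p = 1.09e-06) and Pde1a (-1.40, SE 0.18, adjusted p = 1.56e-05) are examples of both directions. Of 13 genes of protein kinase A and EPAC, 2 were higher and 2 lower, with Prkar1b, a regulatory subunit, at 0.82 (SE 0.08).

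Of 11 genes of phospholipase C, IP3 receptors and protein kinase C, 5 were higher and 0 lower, all by less than 1 on the log2 scale. Of 7 receptor kinases and arrestins, which switch receptors off after activation, 4 were higher and 0 lower, with Grk3 at 1.05 (SE 0.18, adjusted p = 0.000357) and Arrb1 at 0.35 (SE 0.10). Of 18 RGS proteins, which shorten the signal of G proteins, 3 were higher and 2 lower. Rgs2, which acts on Gq, fell by 2.38 on the log2 scale (SE 0.10, adjusted p = 2.97e-11), from 479.6 ± 18.6 TPM in control to 92.0 ± 8.13 TPM in IF mice, and lay at 89.57 ± 6.998 TPM in PBMC and 96.4 ± 20.4 TPM in PBMC-hCG mice (SD, n = 5). Every RU486-treated mouse had less Rgs2 than any control mouse. Of all tested genes, 12.8% did not overlap between IF and control mice, 12.7% between PBMC and control, and 18.3% between PBMC-hCG and control. Of 5 dopamine receptors, 1 was tested and was not called.

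Without control replicate 2, chosen after its markers had been seen, 26.7% of the 18787 genes then tested were called for IF against control, 14.4% higher and 12.3% lower. Transport and storage then had 4 higher and 0 lower genes, breakdown 0 and 6, G protein alpha subunits 0 and 2, protein kinase A and EPAC 2 and 3, phosphodiesterases 8 and 3, and phospholipase C and its partners 5 and 1. The counts of the synthesis genes, dopamine receptors, adenylyl cyclases, receptor kinases and arrestins, and RGS proteins were the same as with this library. Gna14, a subunit of the Gq class, was the 1 gene of the lists whose call was lost in this comparison (0.43, adjusted p = 0.0357, and 0.40, adjusted p = 0.0618, without the library). Plcb1, a phospholipase C that Gq activates, differed by -0.36 with the library (adjusted p = 0.304) and by -0.67 without it (adjusted p = 0.00076).

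For PBMC-hCG against IF, 7.61% of all tested genes were called higher and 5.99% lower. Over the same lists, 2 breakdown genes were higher, Rnls (0.64, SE 0.17) and Sult1a1 (0.58, SE 0.19, adjusted p = 0.0499). Arrb1, an arrestin, was higher by 0.36 (SE 0.10, adjusted p = 0.0344), as were the phosphodiesterases Pde2a (0.36) and Pde7a (0.45), the cyclase Adcy9 (0.43), the IP3 receptor Itpr2 (0.46), the anchoring protein Akap12 (0.69), Gnaz (0.68) and Rgs22 (0.75). Lower in PBMC-hCG mice were Cyb561 (-0.28) and Prkar1a (-0.37). For PBMC against IF and for PBMC-hCG against PBMC, 0 of the 103 genes tested in the lists were called (limma), and 11 and 15 of them had an unadjusted p under 0.05, where 6.79% and 16.2% of all tested genes did.

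**Figure D4:**
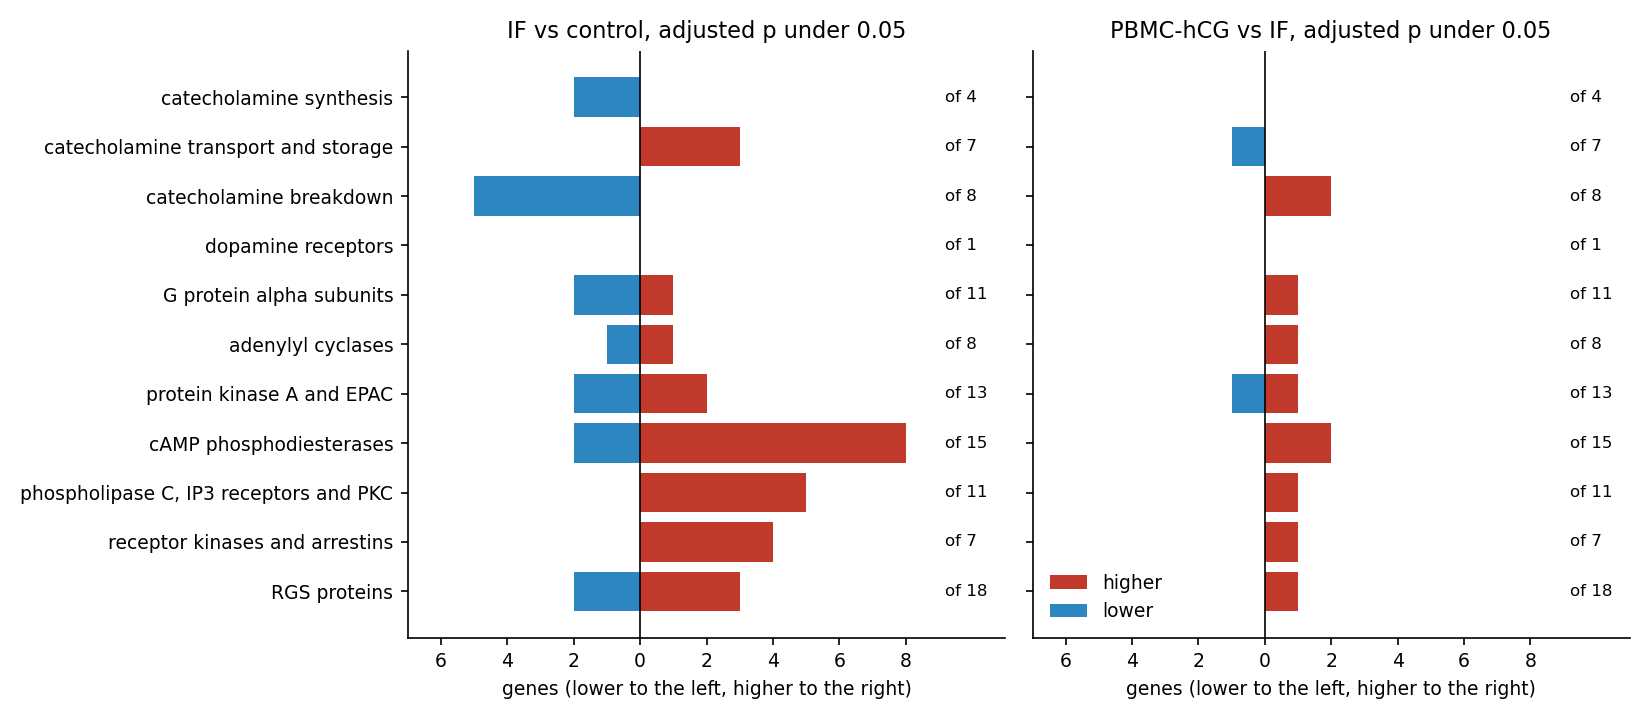
Number of genes called higher (red, to the right) or lower (blue, to the left) at an adjusted p under 0.05 in 11 lists of genes for synthesis, clearance and signalling of catecholamines (vertical axis), for IF against control (left) and PBMC-hCG against IF (right). The number of genes tested stands at the right of each row, and phosphodiesterases have the most calls for IF against control, 8 higher and 2 lower of 15.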

How the data were processed

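Uterine RNA of 20 mice was measured by RNA-seq, and groups and replicate numbers were taken from the sample labels. The authors deposited 1 table of TPM values per gene. Per the labels and methods, reads were trimmed with Trimmomatic, mapped to mm10 with HISAT2 and quantified with StringTie, with tool versions not given in the sources used here. The authors tested read counts with edgeR, and those counts were not used here. TPM was transformed to log2(TPM + 0.1). Genes above 0 TPM in all 20 libraries were fitted with limma 3.58.1 (variance trend, all 4 groups) in R 4.3.3, with Benjamini-Hochberg adjustment within each comparison and a threshold of 0.05. Single receptors were also compared by exact permutation tests. The methods were tested on simulated data. Replicate numbers name separate mice; no batch or date is given. The receptors were proposed as a family, and the gene and marker lists written, with earlier results of these data known. Named genes were all receptors, up to 4 genes per list with the smallest adjusted p and a mean of at least 1 TPM, genes called in another comparison and the 3 genes most like each receptor; Th, Dbh, Pnmt, Ddc, Slc6a2, Maoa, Plcb1, Adipoq and Plin1 were added after their values had been seen. Alternatives were other pseudocounts, filters, scalings, tests and fits, and each mouse left out. Figures were drawn with matplotlib 3.10.9.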

Additional observations from a re-analysis of the deposited data

Results flagged for a closer look

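Among the 32 groups of 5 values (8 receptors in 4 groups), 4 held a value whose gap to its neighbour was more than 0.71 of the range. For normally distributed values, chance gives about 1 in 20 such groups. The flagged values are TPM of Adrb3 and Adra1b, mostly near 0, for which this rate may not hold. For Adrb3, control replicate 2 at 3.57 TPM stood above the other control mice (0.0553 to 0.311 TPM), and IF replicate 5 at 0.534 TPM stood above the other IF mice (0.0651 to 0.163 TPM). These were the 2 libraries with the most adipocyte marker RNA, at 701.5 and 151.6 TPM. Also for Adrb3, PBMC-hCG replicate 1 was listed at 0 and the other PBMC-hCG mice at 0.117 to 0.157 TPM. For Adra1b, PBMC-hCG replicate 4 at 0.0944 TPM lay below the other PBMC-hCG mice (0.180 to 0.210 TPM). With all mice, the PBMC-hCG and control groups did not overlap, and leaving out this mouse cannot create an overlap. What set these values apart was not tested.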

How the results depend on the processing

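The count of receptors called for PBMC-hCG against IF rested on Adra1a and Adra2a, both close to the threshold. It was 1 as reported, 0 without the filter on low values, with quantile normalization and by the rule of an unadjusted p under 0.05 with a fold change of at least 2, and lay between 0 and 2 with 1 mouse at a time left out. It also stood at 1 when only these 2 groups were fitted, but the receptor called was then Adra2a. By the rule with a fold change of at least 2, the count for PBMC-hCG against control was 0 in place of 1, since Adra2a differed by less than that, and 754 in place of 4104 genes were called for IF against control. That number was 2473 when only these 2 groups were fitted, where fewer mice estimate the spread. The count of receptors for IF against control was 0, and between 0 and 1 with each mouse left out (1 without IF replicate 1, Adra1b). The counts for PBMC against IF, PBMC-hCG against PBMC and PBMC against control were 0 under all alternatives run. Scalings moved the median of all genes by less than 0.1 on the log2 scale.

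The replicate numbers did not pair the mice: over 30 pairs of groups and numbers, the correlation of the deviations from the group means lay between -0.25 and 0.46 (median -0.01), 8 were over 0.1, and in 7 of 30 cases a library correlated best with its own number. With the replicate number as a block, 2 receptors were called for PBMC-hCG against IF, Adra1a and Adra2a, and no other count of receptors changed.

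Directions turned only in differences that were not called, and no called difference turned under any alternative. With quantile normalization these were Adra1b (-0.0432), Adra2c (-0.0137) and Adrb1 (-0.0421) for PBMC-hCG against IF, Adra1a for PBMC against control (-0.0377) and Adrb1 for PBMC-hCG against control (-0.12). With median-ratio scaling they were the same Adra1a difference (-0.0179) and Adrb1 for PBMC-hCG against control (-0.0459), and with a pseudocount of 0.01 Adra2c for PBMC-hCG against IF (-0.0735). Of 48 receptor differences, 20 changed sign when 1 mouse was left out. For IF against control, these were Adra1d (-0.0256 to 0.35), Adrb1 (-0.30 to 0.0183) and Adrb3 (-0.98 to 0.16). For PBMC against IF, they were Adra2a (-0.19 to 0.10), Adra2b (-0.43 to 0.0221), Adrb1 (-0.16 to 0.11) and Adrb3 (-0.30 to 0.22). For PBMC-hCG against IF, they were Adra1b (-0.0761 to 0.30), Adra2c (-0.14 to 0.23) and Adrb1 (-0.0183 to 0.28), and for PBMC-hCG against PBMC, Adra2c (-0.34 to 0.0384) and Adrb1 (-0.00047 to 0.32). For PBMC against control, they were Adra1a (-0.10 to 0.19), Adra1b (-0.10 to 0.33), Adra2c (-0.31 to 0.00983), Adrb1 (-0.34 to 0.0234) and Adrb3 (-1.05 to 0.0875). For PBMC-hCG against control, they were Adra1d (-0.25 to 0.13), Adra2b (-0.26 to 0.10) and Adrb1 (-0.20 to 0.20). The cause was not tested. Read depth is unknown, so values below 1 TPM, which include all those of Adra1b, Adra2b and Adra2c, most of Adrb3 and several of Adrb1, may rest on few reads, and a value listed at 0 does not show that the transcript was absent.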

Other observations

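Drd4, a dopamine receptor coupled to Gi, was singled out after its values had been seen. It was at 1.44, 0.107, 1.53, 2.02 and 0.945 TPM in control mice, and at no more than 0.132 TPM in IF mice, 0.169 TPM in PBMC mice and 0.0746 TPM in PBMC-hCG mice. It was listed at 0 in 4 PBMC and 2 PBMC-hCG mice. Control replicate 2 was the single control mouse within the range of the treated mice. In the fit without the filter on low values (limma), IF mice differed from control mice by -2.48 (SE 0.47, adjusted p = 0.00156), and by -3.06 (SE 0.30, adjusted p = 2.54e-06) without control replicate 2.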
